A study of Mus musculus with 6 samples.

Results

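The genes described here build and clear autophagosomes, mark mitochondria for removal, and split or join mitochondria in the neonatal mouse heart. They are 44 genes chosen by name, and all 44 were found among the 54532 genes of the deposited table and were tested among 12431. RNA was sequenced from 6 heart samples of wild-type mice of the outbred ICR stock, whose titles mark day 4. In the STZ group (n = 3), STZ, read here as streptozotocin, which destroys insulin-producing cells and is used to model diabetes, was injected into the peritoneum of the pregnant mothers. Mothers of the control group (n = 3) received citric acid in the same way. The offspring themselves carried no labelled treatment or allele. Each sample is called a heart here, but no label says whether a sample pooled animals, whether hearts came from separate litters, or how much of the atria and vessels was kept, so p-values measure the spread between these 6 samples only.

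In autophagy, a starvation-sensing kinase and a lipid kinase start a membrane, a ubiquitin-like conjugation machinery attaches ATG8 proteins to it, receptors bring cargo, and the lysosome degrades the content. Mitophagy uses the same machinery for mitochondria, and the balance of fusion and fission sets the size of the units that can be engulfed. The heart depends on both for the turnover of its many mitochondria, and around birth cardiomyocytes renew a part of them. RNA levels measure neither the lipidation of ATG8 proteins nor the flow of cargo to the lysosome.

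Levels are given in FPKM, reads per length of the gene and per a library scale that the authors chose, always in the order of hearts 1, 2 and 3 of a group. The values correspond to 16707268 to 18082599 whole reads per library. The authors' scale was 0.985 to 1.03 times the reads in 5 libraries and 1.21 times in control 2, which lowers every value of that heart. Members rested on 183 reads in the thinnest library (Atg10, the E2-like enzyme that attaches Atg12 to Atg5) to 13658 reads in the deepest (Mfn2, a fusion GTPase). Fold changes are STZ over control on log2(FPKM + 1), with standard error (SE), from a limma fit over all 12431 genes. Control 2 stood apart from the other 5 hearts, and fold changes are given with and without it where it moved them most. Its atrial markers summed to 6249 FPKM, against 42.1 to 124 FPKM in the other 5 hearts, and its cardiomyocyte markers to 6259 FPKM, against 12412 to 14466 FPKM. Ucp1, the uncoupling protein of brown fat, was at 213 FPKM in control 2 and at 0 in the other 5 hearts. Adipoq, Cfd and Elovl3, also of fat, were likewise at 0 in the other 5 hearts and above 0 in control 2. Its erythroid markers summed to 14548 FPKM, against 2229 to 4927 FPKM in the others. All 10 cardiomyocyte markers, the check of the labelled tissue, passed the filter on low values.

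Several members are known targets of Tfeb and Tfe3, which are themselves members and bind an E-box. The letters of their promoters are therefore shown before the levels. RefSeq promoters on GRCm38.p6, from 250 bases before to 50 bases after the start of transcription, were found for 37 of the 44 members, which have 46 promoters between them, and for 27025 genes with 32851 promoters in all. The E-box CACGTG, which reads the same on both strands, was present in 7 of these 37 members, or 18.9%, and in 8.09% of all genes. Counted per promoter, it was in 15.2% of those of members and 7.15% of all. The members were Atg14, Atg3, Atg5, Atg7, Ctsd, Ctsl and Lamp1. Its extended form TCACGTGA, which contains the first motif, was present in Atg3 and Ctsd, or 5.41% of members, and in 1.12% of all genes (per promoter, 4.35% and 0.974%). The site of the nuclear respiratory factor NRF1, searched on both strands as GCGC, then AN, then GCGC without a gap, was present in 6 members (Atg3, Atg4d, Map1lc3b, Opa1, Pink1 and Wipi2), or 16.2%, and in 5.19% of all genes (per promoter, 13.04% and 4.60%). A match describes letters in the window and not binding. In the windows below, printed 5′ to 3′ on the strand of the gene, capitals mark the motif. Lamp1 is shown for its 4 copies and the others as 1 example each. The windows of Atg7, Ctsd and Ctsl lie inside the GENCODE gene, whose annotated start is farther upstream than that of the RefSeq transcript. The GENCODE start of Pink1, at 138326307, falls within its window, so its motif also lies inside the gene.
Lamp1, chr8:13159091-13159114, plus strand: gcaagatatCACGTGgtccagcgc
Lamp1, chr8:13159107-13159130, plus strand: tccagcgccCACGTGatgccgact
Lamp1, chr8:13159124-13159147, plus strand: gccgactggCACGTGaccacatca
Lamp1, chr8:13159137-13159160, plus strand: tgaccacatCACGTGcggaacgga
Ctsd, chr7:142387910-142387935, minus strand, extended form: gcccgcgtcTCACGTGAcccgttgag
Atg3, chr16:45158748-45158773, plus strand, extended form: agagtcgagTCACGTGAggccttagg
Atg7, chr6:114670955-114670978, plus strand: attggtggtCACGTGtgcagtaag
Ctsl, chr13:64370742-64370765, minus strand: gttagaagcCACGTGctgatctaa
Opa1, chr16:29579266-29579293, plus strand, NRF1 site: tggctccccGCGCATGCGCatgtcatcc
Pink1, chr4:138326288-138326315, minus strand, NRF1 site: ccgccccccGCGCTTGCGCacaggcgcc

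None of the 44 members passed the threshold of a Benjamini-Hochberg (BH) adjusted p of 0.05 over all genes tested, a threshold that 3 of 12431 genes, or 0.0241%, passed. None had an unadjusted limma p under 0.05 either, against 2.59% of all genes, and the adjusted p of the members lay between 0.922 and 0.999. Their log2 fold changes ran from -0.36 for the cathepsin Ctsl to 0.37 for the fusion GTPase Mfn1. The median was 0.044, beside 0.031 for all genes tested. A positive value was found for 30 members and a negative value for 14, and 57.7% of all genes were positive. Without control 2, 18 were positive and 26 negative with a median of -0.022, beside 49.5% positive and a median of -0.0014 among all genes. On the scale of recovered reads the median of the members was -0.021, beside -0.026 for all genes. The sign of both medians thus changed with the scale.

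The intervals of these differences were narrow for most members. The 95% interval of the fold change lay within 2-fold either way for 41 of 44 members, beside 89.5% of all genes. It lay within 1.5-fold for 36 members, beside 66.6% of all genes. The 8 members with a wider interval than 1.5-fold were Gabarapl1, Ctsl and the 6 fusion and fission genes. Without control 2 the interval was within 1.5-fold for 43 of 44 members and for 85% of all genes, Atg10 being the exception. The median SD across the 6 hearts on the log2 scale was 0.130 for members and 0.182 for all genes, and 0.0938 and 0.123 without control 2. The filter kept genes down to 1 FPKM in 3 samples, and neither the intervals nor the SDs were matched for level. None of the 44 members varied by more than 1.5-fold between the lowest and the highest of the other 5 hearts, while 10 did once control 2 was counted.

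**Figure D1:**
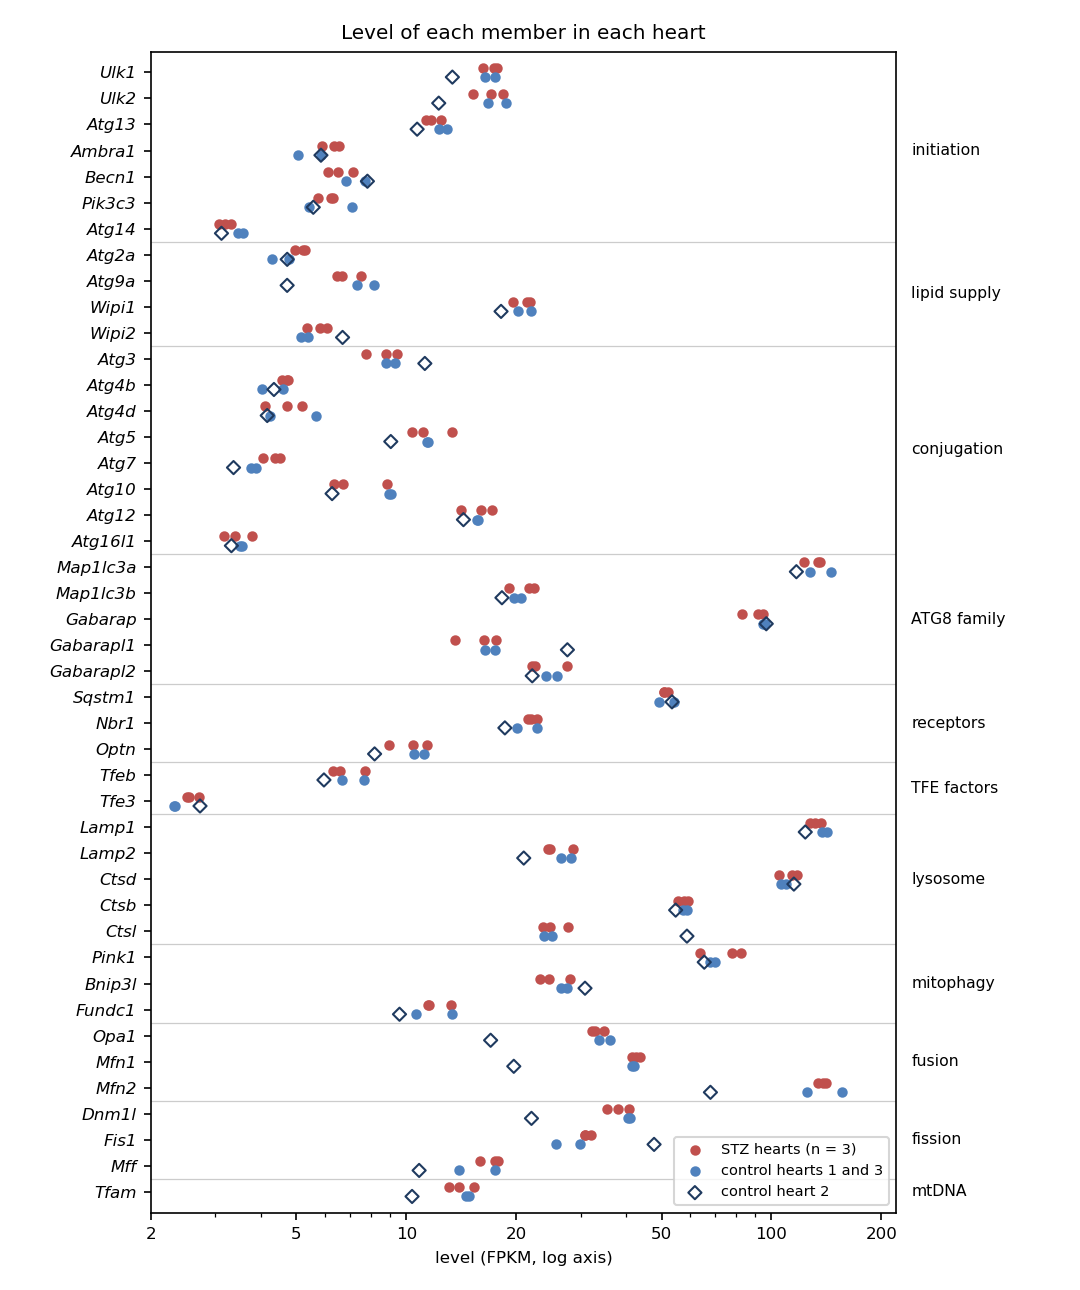
Level of each of the 44 members in each heart in FPKM on a log axis, grouped by role, with STZ hearts as red points, controls 1 and 3 as blue points and control 2 as an open diamond. The red and blue points lie close together for nearly every gene, and the diamond lies apart for Opa1, Mfn1, Mfn2, Dnm1l, Fis1, Ctsl and Gabarapl1.

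The genes that start an autophagosome were close between the groups. Ulk1, the kinase that answers to nutrient sensors, was at 17.4, 16.2 and 17.7 FPKM in STZ hearts, against 16.4, 13.4 and 17.4 FPKM in control hearts. Every heart lay between 16.2 and 17.7 FPKM except control 2, and the log2 fold change was 0.12 (SE 0.125) with and 0.013 without that heart. Becn1, the scaffold of the lipid kinase complex, was at 7.16, 6.48 and 6.10 FPKM in STZ hearts, against 7.69, 7.82 and 6.85 FPKM in control hearts, with a log2 fold change of -0.16 (SE 0.104). Its groups overlapped by 1 STZ heart, and the value was -0.13 without control 2. Ambra1, which brings Becn1 and the Ulk1 complex together, was at 5.86, 6.34 and 6.53 FPKM in STZ hearts, against 5.84, 5.83 and 5.06 FPKM in control hearts, with a log2 fold change of 0.14 (SE 0.101) and 0.17 without control 2. All 3 STZ values of Ambra1 were above the controls, the lowest of them only just. The other genes of this role overlapped between the groups. The kinase Ulk2 was at 15.2 to 18.4 FPKM in STZ hearts and 12.3 to 18.8 FPKM in control hearts, and its partner Atg13 at 11.3 to 12.4 FPKM in STZ hearts and 10.7 to 12.9 FPKM in control hearts. The lipid kinase Pik3c3 was at 5.73 to 6.29 FPKM in STZ hearts and 5.40 to 7.08 FPKM in control hearts, and its targeting subunit Atg14 at 3.07 to 3.31 FPKM in STZ hearts and 3.12 to 3.58 FPKM in control hearts. Of the 7, 4 had a positive and 3 a negative value, with a median of 0.022 and, without control 2, of -0.069.

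Genes that feed lipid to the growing membrane, or bind the lipid made by Pik3c3, gave 4 positive values of 4, with a median of 0.057. Without control 2, 2 of 4 were positive, with a median of 0.048. Atg2a, a lipid transfer protein, was at 4.96, 5.22 and 5.27 FPKM in STZ hearts, against 4.76, 4.72 and 4.27 FPKM in control hearts. The fold change on the log2 scale was 0.14 (SE 0.0928) and 0.16 without control 2, and the 3 STZ values lay above the 3 control values. Atg9a, the lipid scramblase of the seed vesicles, and Wipi1 and Wipi2, which bind the lipid that Pik3c3 makes, overlapped between the groups. Wipi1 was at 19.6 to 21.8 FPKM in STZ hearts and 18.2 to 21.9 FPKM in control hearts, and Wipi2 at 5.35 to 6.07 FPKM in STZ hearts and 5.15 to 6.69 FPKM in control hearts. Atg9a reached its lowest level in control 2, at 4.71 FPKM against 6.47 to 8.15 FPKM in the other hearts. Its log2 fold change of 0.056 (SE 0.185) was -0.15 without that heart, and that of Wipi1 also turned negative.

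Among the 8 genes of the conjugation machinery, Atg7 had the lowest unadjusted p of all members. This E1-like enzyme activates both Atg12 and the ATG8 proteins, and it was at 4.04, 4.36 and 4.49 FPKM in STZ hearts, against 3.88, 3.36 and 3.74 FPKM in control hearts. The 3 STZ hearts lay above the 3 control hearts by a small margin, and the log2 fold change was 0.19 (SE 0.0988; limma, unadjusted p = 0.104, BH-adjusted p = 0.922). It was 0.14 without control 2 and stayed positive in each fit that left out 1 heart, from 0.14 to 0.22. Atg5, which with Atg12 and Atg16l1 forms the complex that directs lipidation, was at 13.3, 11.1 and 10.3 FPKM in STZ hearts, against 11.5, 9.06 and 11.4 FPKM in control hearts. Its groups overlapped, and the log2 fold change was 0.11 (SE 0.140) with and 0.0088 without control 2. Atg3, the E2-like enzyme for ATG8 proteins, averaged 8.66 ± 0.855 FPKM in STZ hearts and 9.77 ± 1.29 FPKM in control hearts (SD, n = 3 each), and its highest value was that of control 2. Its log2 fold change was -0.15 (SE 0.127) with and -0.059 without that heart. Atg10 varied most among the 5 other hearts, at 8.87, 6.34 and 6.71 FPKM in STZ hearts, against 8.95, 6.26 and 9.07 FPKM in control hearts. The low control value of Atg10 was that of control 2. Controls 1 and 3 lay above all 3 STZ hearts, only just above STZ heart 1. The log2 fold change of Atg10 was -0.13 (SE 0.177) with and -0.28 without control 2. In the fit without control 2 it had the lowest p of the members (limma, unadjusted p = 0.088, BH-adjusted p = 0.9998). Of the proteases that prime and recycle ATG8 proteins, Atg4b was at 4.58 to 4.73 FPKM in STZ hearts and 4.02 to 4.61 FPKM in control hearts, and Atg4d at 4.11 to 5.19 FPKM in STZ hearts and 4.16 to 5.66 FPKM in control hearts. Atg12 was at 14.1 to 17.2 FPKM in STZ hearts and 14.3 to 15.7 FPKM in control hearts, and Atg16l1 at 3.16 to 3.77 FPKM in STZ hearts and 3.32 to 3.54 FPKM in control hearts. All of these overlapped between the groups, and the median of the 8 was 0.023, or -0.012 without control 2.

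Ambra1, Atg2a and Atg7 were the only 3 of 44 members whose groups did not overlap, all with the STZ hearts higher, while 4.92% of all genes had higher and 3.62% lower non-overlapping groups. The share of members thus lay near that of all genes. On the scale of recovered reads Ambra1 and Atg2a overlapped, Atg7 did not, and Atg14 and Lamp1 lay lower in all 3 STZ hearts. On that scale 3.72% of all genes had higher and 4.26% lower non-overlapping groups.

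The ATG8 proteins coat the membrane and hold cargo receptors. Map1lc3a was at 136, 134 and 123 FPKM in STZ hearts, against 145, 117 and 127 FPKM in control hearts, with a log2 fold change of 0.013 (SE 0.139) that turned to -0.059 without control 2. Map1lc3b, whose product is the usual marker of autophagosomes, was at 21.6, 22.4 and 19.2 FPKM in STZ hearts, against 19.8, 18.3 and 20.7 FPKM in control hearts, with a log2 fold change of 0.10 (SE 0.110) and 0.054 without control 2. Both genes overlapped between the groups. Gabarapl1 was at 16.3, 13.6 and 17.6 FPKM in STZ hearts, against 16.4, 27.6 and 17.5 FPKM in control hearts. Control 2 was the highest heart, and the log2 fold change was -0.32 (SE 0.210) with and -0.10 without it. Gabarap averaged 89.95 ± 6.35 FPKM in STZ hearts and 95.9 ± 0.979 FPKM in control hearts (SD, n = 3 each). Gabarapl2 averaged 24.01 ± 3.02 FPKM in STZ hearts and 24.03 ± 1.89 FPKM in control hearts (SD, n = 3 each), and both genes had overlapping groups. Per length, Map1lc3a and Gabarap were the highest of the 5 in every heart and did not overlap each other, while Map1lc3b, Gabarapl1 and Gabarapl2 overlapped. The order depends on the length used: Map1lc3a and Map1lc3b had 2637 to 2957 and 2503 to 2938 reads per library, over deposited lengths of 1181 and 7517 bases.

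Near-identical copies limit the levels of 2 members. Gm6055 matches Map1lc3b at 99.7% over 378 bases and held 94, 99 and 99 reads in STZ hearts, against 68, 261 and 73 reads in control hearts. This was at most 3.57% of the summed reads in 5 hearts and 8.16% in control 2. Bnip3l-ps, at 99.4% identity to the mitophagy receptor Bnip3l over 1131 bases, held 5.50% to 7.38% of the summed reads. How the authors counted reads that match both is not given in the sources used here. Nor is the strand setting, and 12.8% of the exon bases of Ctsb overlap Fdft1 on the opposite strand, which averaged 9.64 FPKM. For Atg4d, at a mean of 4.68 FPKM, 19.3% overlap Kri1, at 1.38 FPKM, and for Sqstm1 17.3% overlap Mrnip, at 1.12 FPKM. Exons of Becn1 (43.9% of bases, Cntd1 at 0.0761 FPKM) and Gabarapl1 (28.3%, 1700101I11Rik at 0.233 FPKM) overlap genes that were nearly silent here. Those of Ctsd (34.4%, Gm49369), Atg9a (31.8%, Gm29253) and Ctsl (26.85%, Gm47123) overlap genes at 0 FPKM. These overlaps are on the same strand for Ctsd and Atg9a and on the opposite strand for Ctsl. How reads shared with them were counted is not given either.

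Cargo receptors join ubiquitinated cargo to ATG8 proteins. Sqstm1, also called p62, was at 50.7, 50.9 and 52.2 FPKM in STZ hearts, against 49.2, 53.4 and 54.1 FPKM in control hearts. Its highest value was 1.10 times its lowest, and the log2 fold change was -0.026 with a 95% interval of -0.28 to 0.23, and -0.0092 without control 2. Nbr1 was at 21.5, 22.8 and 22.01 FPKM in STZ hearts, against 20.1, 18.6 and 22.8 FPKM in control hearts, with a log2 fold change of 0.11 (SE 0.112), 0.044 without control 2, and overlapping groups. Optn, a receptor in mitophagy, averaged 10.3 ± 1.21 FPKM in STZ hearts and 9.94 ± 1.56 FPKM in control hearts (SD, n = 3 each), with a log2 fold change of 0.046 (SE 0.146) and -0.075 without control 2. The median of the 3 was 0.046, and -0.0092 without control 2.

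Tfeb and Tfe3 are transcription factors that switch on lysosome and autophagy genes when nutrients are scarce. Tfeb was at 6.29, 7.69 and 6.56 FPKM in STZ hearts, against 7.66, 5.95 and 6.65 FPKM in control hearts, with a log2 fold change of 0.020 (SE 0.125) that was -0.056 without control 2. Tfe3 was at 2.71, 2.51 and 2.54 FPKM in STZ hearts, against 2.30, 2.72 and 2.32 FPKM in control hearts, with a log2 fold change of 0.060 (SE 0.105) and 0.12 without control 2. Both overlapped between the groups. The 7 members with an E-box in the promoter window had 3 positive and 4 negative values, from -0.36 for Ctsl to 0.19 for Atg7. Without control 2 there were 4 positive and 3 negative values, from -0.11 for Atg14 to 0.14 for Atg7.

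Lysosome members were even between the groups apart from Ctsl. Lamp1, a glycoprotein of the lysosomal membrane, was at 131, 137 and 127 FPKM in STZ hearts, against 142, 124 and 137 FPKM in control hearts, with a log2 fold change of -0.026 (SE 0.127), -0.084 without control 2, and overlapping groups. Lamp2, which is needed for the lysosome to join the autophagosome in heart muscle, was at 24.7, 28.5 and 24.5 FPKM in STZ hearts, against 26.6, 20.97 and 28.2 FPKM in control hearts. Control 2 was the lowest heart, and the log2 fold change was 0.044 (SE 0.143) with and -0.079 without it. The proteases Ctsd and Ctsb varied little. Ctsd was at 117, 114 and 105 FPKM in STZ hearts, against 109.8, 115 and 106 FPKM in control hearts, with a log2 fold change of 0.020 (SE 0.121) and 0.051 without control 2. Ctsb was at 58.9, 55.5 and 57.6 FPKM in STZ hearts, against 58.6, 54.7 and 57.3 FPKM in control hearts, with a log2 fold change of 0.013 and a 95% interval of -0.24 to 0.26, which turned to -0.015 without control 2, the lowest heart. The highest value was 1.12 times the lowest for Ctsd and 1.08 times for Ctsb.

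Ctsl (chr13:64359337-64370890, GRCm38), a cathepsin whose loss causes cardiomyopathy in mice, had the most negative value of the 44. It was at 24.8, 27.7 and 23.7 FPKM in STZ hearts, against 25.1, 58.7 and 23.8 FPKM in control hearts. Control 2 stood at more than 2 times every other heart, and the other 5 hearts overlapped. The log2 fold change was -0.36 (SE 0.331) with and 0.049 (95% interval -0.18 to 0.27) without control 2. Markers of macrophages, which are rich in cathepsins, summed to 112 FPKM in control 2 and to 44.6 to 56.8 FPKM in the other hearts, and fibroblast markers to 1564 FPKM, against 771 to 972 FPKM. Their part in the Ctsl value was not tested.

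**Figure D2:**
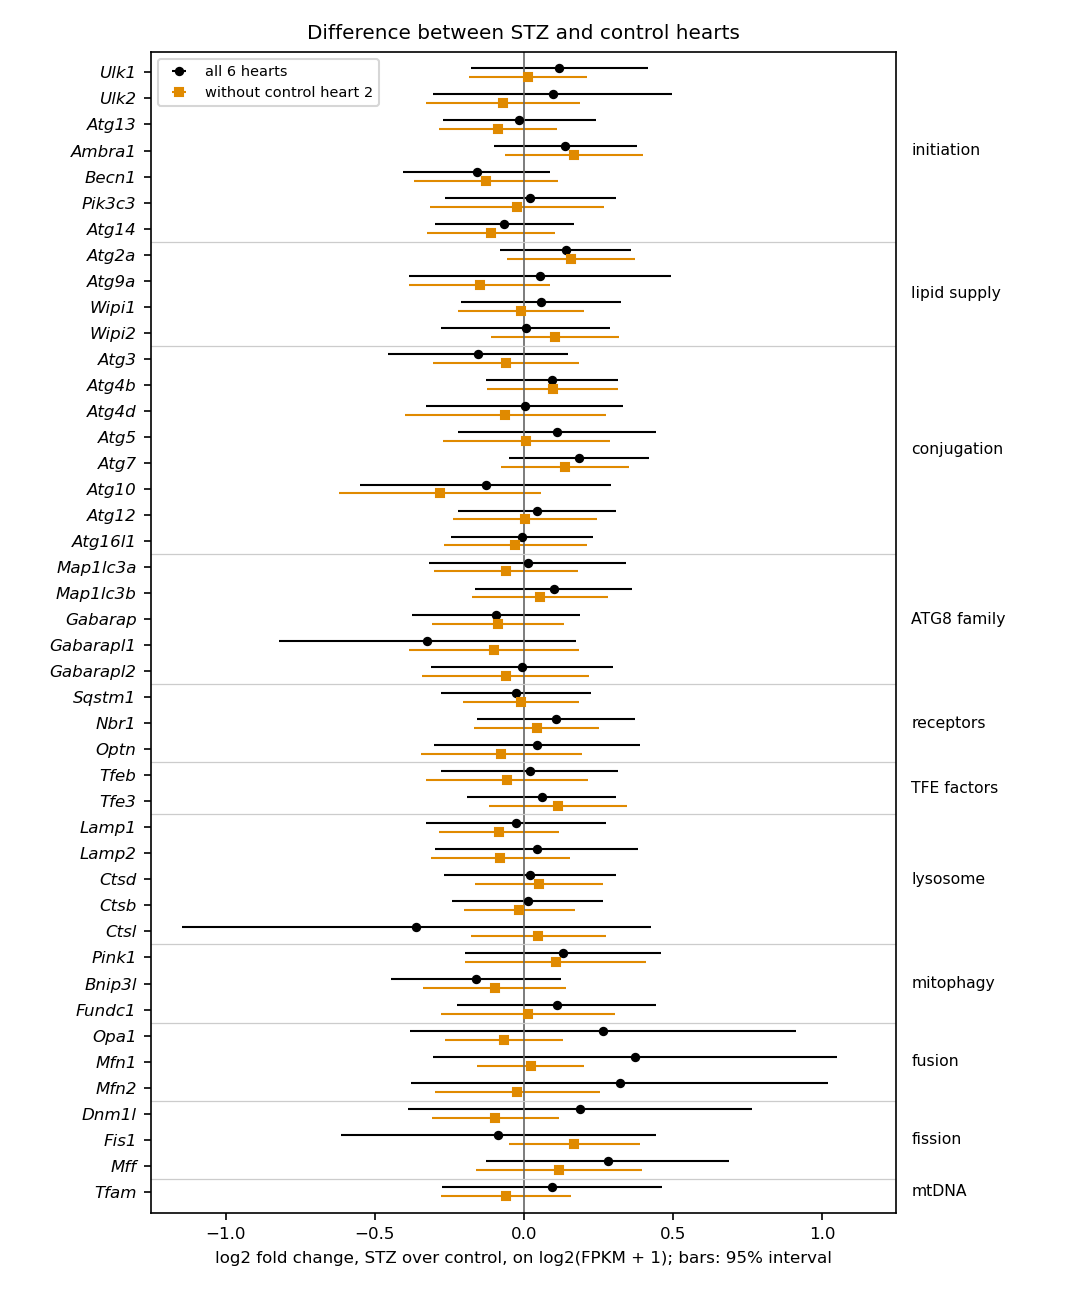
Log2 fold change of STZ over control hearts for each of the 44 members on log2(FPKM + 1), with 95% intervals, from all 6 hearts (black) and without control heart 2 (orange). Every black interval spans 0, and the wide black intervals of Ctsl, Opa1, Mfn1, Mfn2, Dnm1l and Fis1 shrink around values from -0.096 to 0.17 in orange.

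Mitophagy genes overlapped between the groups. Pink1, the kinase that accumulates on damaged mitochondria, was at 78.2, 82.7 and 63.6 FPKM in STZ hearts, against 69.97, 65.5 and 68.04 FPKM in control hearts. STZ hearts 1 and 2 were the highest and STZ heart 3 the lowest of the 6, and the log2 fold change was 0.13 (SE 0.138) and 0.11 without control 2. Bnip3l, also called Nix, a receptor in the outer membrane of mitochondria, was at 23.3, 24.6 and 27.99 FPKM in STZ hearts, against 27.5, 30.9 and 26.6 FPKM in control hearts, with a log2 fold change of -0.16 (SE 0.120) and -0.098 without control 2. Fundc1, a receptor of mitophagy under low oxygen, was at 13.2, 11.4 and 11.5 FPKM in STZ hearts, against 10.6, 9.58 and 13.3 FPKM in control hearts, and its log2 fold change of 0.11 (SE 0.140) was 0.015 without control 2. Fundc1, Lamp2 and Tfe3 are on the X chromosome. Xist was at 70.6 FPKM in control 3 and at 0 to 0.0541 FPKM in the other 5 hearts, and the 4 Y-linked genes checked were at 0 in control 3 alone. Control 3 thus had a female pattern and the other 5 hearts a male one, so sex was not balanced between the groups for any member. Without control 3 the log2 fold changes of Fundc1, Lamp2 and Tfe3 were 0.23, 0.13 and 0.033.

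The mitofusins Mfn1 and Mfn2 gave the largest positive values among the members, and these rested on control 2, as did that of Opa1. Mfn1 (chr3:32529465-32579239, GRCm38), a GTPase of the outer membrane, was at 41.4, 43.6 and 42.7 FPKM in STZ hearts, against 41.6, 19.7 and 42.1 FPKM in control hearts. The 5 hearts other than control 2 lay within 1.05-fold of each other. The log2 fold change was 0.37 (SE 0.285) with control 2, and 0.023 (95% interval -0.16 to 0.20) without it. Mfn2 (chr4:147873599-147904704), its relative that also tethers mitochondria to the sarcoplasmic reticulum, was at 134, 139 and 141 FPKM in STZ hearts, against 156, 68.1 and 125 FPKM in control hearts. Opa1 (chr16:29579334-29654884), which fuses the inner membrane and shapes its folds, was at 32.3, 32.9 and 34.8 FPKM in STZ hearts, against 36.2, 17.02 and 33.7 FPKM in control hearts. In both genes control 2 was the lowest heart and the other 5 overlapped. Their log2 fold changes were 0.32 (SE 0.295) and 0.27 (SE 0.273) with control 2, and -0.021 and -0.066 without it.

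Fission genes did not move as a block. Dnm1l, the GTPase also called Drp1 that constricts mitochondria, was at 35.5, 38.03 and 40.8 FPKM in STZ hearts, against 40.4, 22.02 and 41.1 FPKM in control hearts, with a log2 fold change of 0.19 (SE 0.243) and -0.096 without control 2. Fis1, an adaptor in the outer membrane, was at 31.98, 30.9 and 30.8 FPKM in STZ hearts, against 29.8, 47.7 and 25.6 FPKM in control hearts. Control 2 was the highest heart for Fis1 and the lowest for Dnm1l, and the log2 fold change of Fis1 was -0.086 (SE 0.222) with and 0.17 without it. Mff, the main receptor of Dnm1l on mitochondria, was at 17.5, 17.8 and 15.9 FPKM in STZ hearts, against 13.96, 10.8 and 17.5 FPKM in control hearts. Its groups overlapped at control 3, and the log2 fold change was 0.28 (SE 0.172) with all hearts and 0.12 without control 2. Without control 3, the only heart with a female pattern, it was 0.44 (limma, unadjusted p = 0.0252, BH-adjusted p = 0.689). Tfam, which packs mitochondrial DNA and starts its transcription, was at 15.3, 13.1 and 13.9 FPKM in STZ hearts, against 14.9, 10.4 and 14.6 FPKM in control hearts. The log2 fold change was 0.096 (SE 0.156) with control 2, the lowest heart, and -0.061 without it.

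Within the controls, control 2 was lower than the mean of controls 1 and 3 by 1.05 (log2) at Mfn1, 1.03 at Mfn2, 0.996 at Opa1 and 0.86 at Dnm1l. It was higher by 1.23 at Ctsl, 0.77 at Fis1 and 0.67 at Gabarapl1. On the scale of recovered reads Mfn1, Mfn2, Opa1 and Dnm1l were still lower, by 0.79, 0.76, 0.74 and 0.60, and Ctsl, Fis1 and Gabarapl1 higher, by 1.498, 1.03 and 0.94. Control 2 had the lowest of the 6 values at 23 of 44 members and the highest at 9, while it was lowest at 41.7% and highest at 27.4% of all genes tested. On the read scale it was lowest at 9 members and highest at 18, beside 22.9% and 46.9% of all genes. Summed over the 3 fusion genes, STZ hearts were at 208, 215 and 219 FPKM and control hearts at 234, 105 and 201 FPKM. In this comparison of control 2 with controls 1 and 3, the cardiomyocyte markers had a median of -1.28 (log2), from -2.07 for Pln to -0.35 for Tnnt2. The fusion genes had a median of -1.03. Endothelial markers had a median of -0.23, from -1.45 for Kdr to 0.096 for Emcn. In RNA from whole tissue, fewer cells of a type and less RNA per cell cannot be told apart, and the part of cell makeup in these values was not tested.

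**Figure D3:**
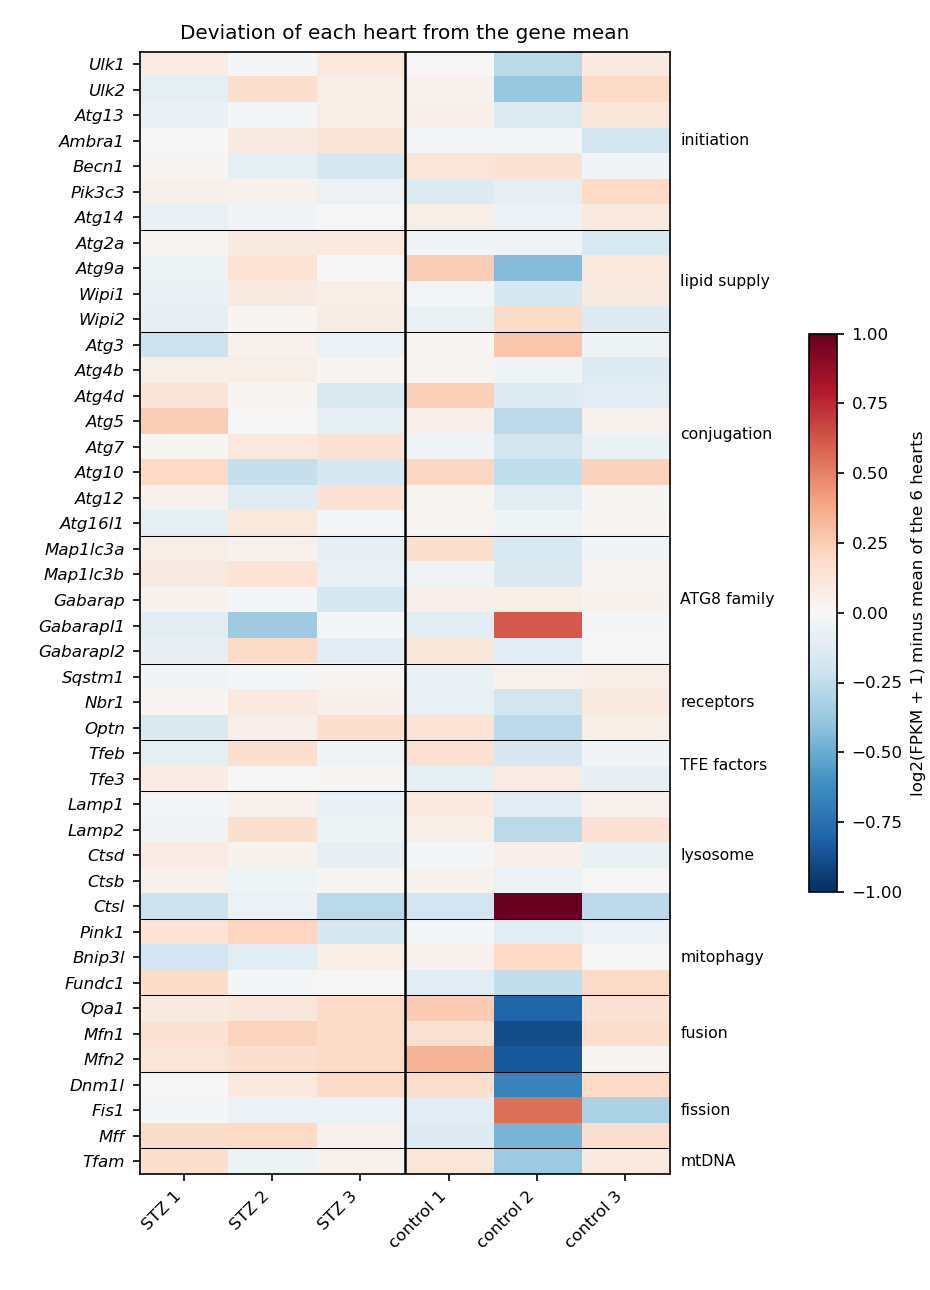
Deviation of each heart (columns) from the mean of the 6 hearts for each member (rows), on log2(FPKM + 1), with red above and blue below the mean and colours that end at -1 and 1. The column of control 2 carries the strongest colours, blue at Opa1, Mfn1, Mfn2 and Dnm1l and red at Ctsl, Gabarapl1 and Fis1.

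Ratios of related members within a heart do not depend on the scale of the library. Of the 8 ratios computed, each overlapped between the groups, and the exact permutation test over 20 assignments, whose smallest two-sided p is 0.1, gave p from 0.3 to 1 (BH-adjusted over the 8, 0.914 to 1). Opa1 to Dnm1l, a fusion to a fission gene, was 0.911, 0.865 and 0.854 in STZ hearts and 0.897, 0.773 and 0.820 in control hearts, with control 2 the lowest. The ratio of Mfn1 to Mfn2 was 0.309, 0.315 and 0.303 in STZ hearts and 0.267, 0.289 and 0.336 in control hearts. Control 2 lay among the other hearts for this pair, although both genes were at their lowest there. Bnip3l to Pink1 was 0.298, 0.297 and 0.440 in STZ hearts and 0.394, 0.471 and 0.390 in control hearts. STZ hearts 1 and 2 were the lowest of the 6 and control 2 the highest, and the log2 difference was -0.30 (exact p = 0.3). Ctsl to Ctsd was 0.211, 0.243 and 0.226 in STZ hearts and 0.229, 0.509 and 0.224 in control hearts. Gabarapl1 to Gabarap was 0.172, 0.148 and 0.212 in STZ hearts and 0.171, 0.285 and 0.185 in control hearts. In both, control 2 was the high value. The remaining ratios, of Map1lc3a to Map1lc3b, Ulk1 to Ulk2 and Tfeb to Tfe3, differed by -0.092, 0.023 and -0.061 on the log2 scale. Control 2 had the lowest ratio of Tfeb to Tfe3, at 2.19.

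**Figure D4:**
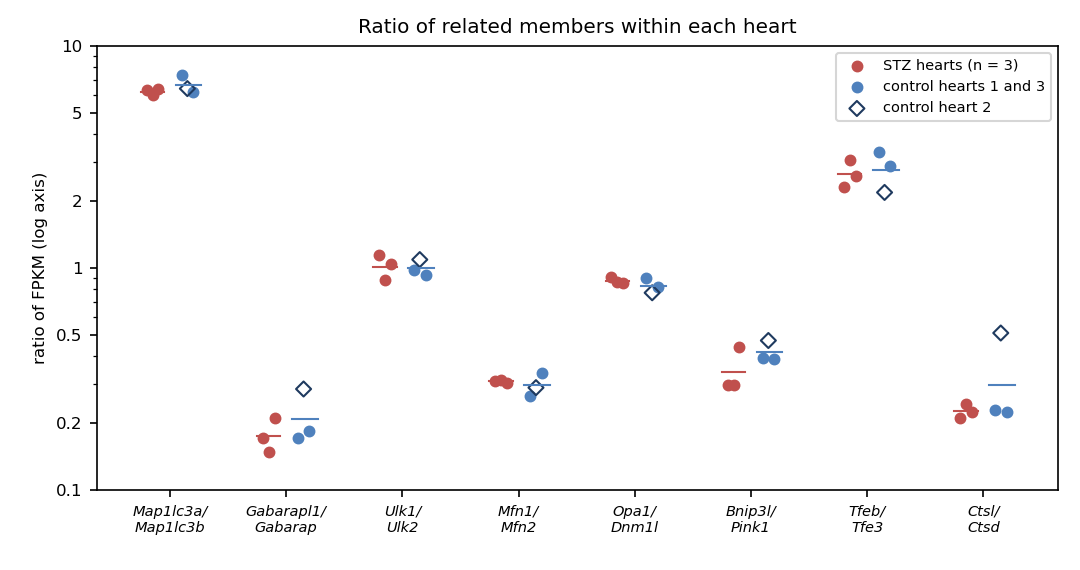
Ratio of FPKM of 8 pairs of related members within each heart, on a log axis, with STZ hearts in red, control hearts in blue (control 2 as an open diamond) and lines at the geometric mean of each group. The ranges of red and blue points overlap in every pair. The diamond lies highest for Ctsl to Ctsd, Gabarapl1 to Gabarap and Bnip3l to Pink1, and lowest for Opa1 to Dnm1l and Tfeb to Tfe3.

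No other gene of the same pathways passed the test either. Of 139 found in the table, 133 were tested in 7 lists. An unadjusted limma p under 0.05 was found for 2 of them, beside 2.59% of all genes. There were 89 positive and 44 negative values with a median of 0.037, and without control 2 the median was -0.0039 with 69 negative. The groups did not overlap for 7 higher and 2 lower genes, beside 4.92% and 3.62% of all genes, and on the scale of recovered reads for 6 higher and 4 lower, beside 3.72% and 4.26%.

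Calcoco1, a receptor that carries endoplasmic reticulum and Golgi to the autophagosome, was at 19.1, 20.98 and 18.1 FPKM in STZ hearts, against 15.8, 16.2 and 15.3 FPKM in control hearts. All 3 STZ hearts were higher, and the log2 fold change was 0.28 (SE 0.102; limma, unadjusted p = 0.0272, BH-adjusted p = 0.922) and 0.30 without control 2. On the scale of recovered reads control 2 was at 19.5, inside the STZ range of 18.6 to 21.1. Fam134b (Retreg1 in the table), a receptor for endoplasmic reticulum, was at 54.996, 58.5 and 55.1 FPKM in STZ hearts, against 45.96, 16.6 and 60.9 FPKM in control hearts, and its log2 fold change of 0.62 (SE 0.434) was 0.085 without control 2. The 9 receptors tested had a median of 0.084, and of -0.0021 without control 2.

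Twnk, the helicase that unwinds mitochondrial DNA, was at 7.93, 8.34 and 7.94 FPKM in STZ hearts, against 6.95, 5.50 and 7.005 FPKM in control hearts. The groups did not overlap on either scale, and the log2 fold change was 0.28 (SE 0.115; limma, unadjusted p = 0.0435, BH-adjusted p = 0.922) and 0.19 without control 2. Mgme1, an exonuclease of mitochondrial DNA, was at 4.60, 5.28 and 4.64 FPKM in STZ hearts, against 4.08, 3.30 and 4.33 FPKM in control hearts, with a log2 fold change of 0.26 (SE 0.120) and 0.16 without control 2. Both genes were higher in all 3 STZ hearts, without passing the adjusted threshold. Of the 14 genes of mitochondrial DNA and biogenesis tested, 13 were positive with a median of 0.10, and without control 2, 7 were positive and 7 negative.

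In nutrient sensing, Mtor, the kinase that holds Ulk1 inactive when nutrients suffice, was at 12.2, 11.5 and 11.4 FPKM in STZ hearts, against 10.4, 6.70 and 10.8 FPKM in control hearts. Its STZ hearts lay above its control hearts on both scales, and the log2 fold change was 0.32 (SE 0.175) and 0.13 without control 2. Prkaa2, the AMPK catalytic subunit typical of muscle, was at 31.9, 36.9 and 35.8 FPKM in STZ hearts, against 30.99, 14.6 and 37.4 FPKM in control hearts, and its value of 0.42 (SE 0.322) was 0.032 without control 2. The 22 genes of that list had a median of 0.032, with 15 positive, and without control 2 a median of -0.024, with 14 negative.

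Lysosome genes outside the members had 14 positive and 20 negative values with a median of -0.046, and without control 2, 21 positive and 13 negative values with a median of 0.0198. Lipa, the acid lipase, was at 10.7, 10.8 and 11.6 FPKM in STZ hearts, against 12.3, 16.8 and 12.2 FPKM in control hearts, with a log2 fold change of -0.28 (SE 0.143) and -0.14 without control 2. Atp6v1a, a subunit of the proton pump that acidifies the lysosome, was at 10.1, 10.3 and 9.78 FPKM in STZ hearts, against 11.7, 10.4 and 11.5 FPKM in control hearts, with a log2 fold change of -0.14 (SE 0.0950) and -0.19 without control 2. All 3 STZ hearts were below the 3 control hearts in both genes, on both scales, and neither passed the test.

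Among the 22 other autophagosome genes, 15 were positive, with a median of 0.041 and, without control 2, of 0.00085. Atg2b, the paralog of Atg2a, was at 3.11, 3.51 and 3.16 FPKM in STZ hearts, against 2.94, 2.31 and 3.02 FPKM in control hearts, with a log2 fold change of 0.19 (SE 0.118) and 0.097 without control 2. Plekhm1, an adaptor for the joining with the lysosome, was at 3.71, 4.50 and 4.73 FPKM in STZ hearts, against 4.78, 4.72 and 5.18 FPKM in control hearts, with a log2 fold change of -0.15 (SE 0.112) and -0.17 without control 2. Of this pair, Atg2b had groups that did not overlap. Of 14 other mitophagy genes, 9 were positive (median 0.041, and -0.0295 without control 2). Mul1, a ubiquitin ligase of the outer membrane that acts on Mfn2, was at 16.2, 17.6 and 14.9 FPKM in STZ hearts, against 15.1, 9.92 and 12.8 FPKM in control hearts, with a log2 fold change of 0.36 (SE 0.160) and 0.21 without control 2. Pgam5, a phosphatase that acts on Fundc1, was at 8.27, 8.18 and 7.47 FPKM in STZ hearts, against 8.66, 5.63 and 7.46 FPKM in control hearts, with a log2 fold change of 0.14 (SE 0.151) and -0.012 without control 2. The groups of both genes overlapped.

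Of 18 other genes of mitochondrial dynamics, 16 were positive with a median of 0.12, the highest of the 7 lists, and without control 2, 8 were positive with a median of -0.043. Trak2, an adaptor that links mitochondria to motors, was at 40.4, 37.9 and 39.8 FPKM in STZ hearts, against 39.01, 18.8 and 38.9 FPKM in control hearts, with a log2 fold change of 0.35 (SE 0.275) and 0.014 without control 2. Trak1 was at 34.8, 35.3 and 36.8 FPKM in STZ hearts, against 36.2, 18.5 and 35.01 FPKM in control hearts, with a log2 fold change of 0.30 (SE 0.251) and 0.0016 without control 2. Control 2 was the lowest heart in both, and for 14 of the 18 genes of the list, as it was for all 3 fusion members.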

How the data were processed

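Heart RNA of 3 STZ and 3 control samples was compared. Per the labels' protocols, total RNA was isolated with RNeasy columns and prepared with the SMARTER kit for mRNA. The submitters' processing notes name GRCm38 (mm10). How reads were aligned, counted and assigned to strands is not stated there. The authors deposited FPKM values for 54532 genes, a unit read from the table's abbreviation and values, since no header states it. Multiplied by the deposited gene length, 100% of values were whole multiples of 1 read per library within 0.01. Members thus rested on 183 to 13658 reads per library. The SE of a fold change also holds the spread between hearts. It was 0.295 for Mfn2, with 7562 to 13658 reads, and 0.098 for Atg14, with 232 to 288 reads.

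The 12431 genes that reached 1 FPKM in 3 samples or more entered a limma 3.58.1 fit in R 4.3.3 on log2(FPKM + 1), with a trend of variance on mean, a scale that understates the change of low genes. Group was the only term, tests were two-sided, and the Benjamini-Hochberg adjustment ran over the whole table (threshold 0.05). The fit was also run on simulated data, and its power to find changes is not given here. Ratios had an exact permutation test. Values were given in full for 20 members fixed by name, members whose groups did not overlap, and the member of each role with the lowest p, and for the 2 genes of each other list with the lowest p. Those of Atg10, Fis1 and Fundc1 were also given in full, outside these rules. The members, lists and rules were chosen with earlier results of these data known. Alternatives covered the pseudocount, filter, scaling, replicate block, array weights, voom on the recovered reads and each sample left out. Lists and E-box counts without control 2, control 2 and group overlap on the read scale, and motif shares per gene were added after the data were seen. GENCODE M21 held 43 of 44 members at the deposited position. The exception was Atg12, with a deposited length of 2492 bases against 7711 bases of GENCODE exons, so its FPKM level depends on the length used. Copies were searched with blastn 2.17.0 at 95% identity over 200 bases, and promoters came from RefSeq. Chi-square per degree of freedom between libraries was at least 12.8, so none was deposited in duplicate. Fam134b was matched through RefSeq synonyms. Plots used Python 3.11.15 and matplotlib 3.10.9.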

Additional observations from a re-analysis of the deposited data

How the results depend on the processing

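No member passed the threshold in the limma fit with all hearts or in any alternative run. An unadjusted limma p under 0.05 arose only for Atg10 with array weights and for Mff without control 3. Over all genes, 3 passed with all hearts, 0 with the replicate block, 8 with array weights (2 higher, 6 lower), 1 with voom, and 2 to 5 with 1 heart left out, the 5 without control 2. The median over members ran from -0.022 to 0.084 with 1 heart left out, and was -0.021 on recovered reads, -0.021 with voom and -0.0027 with array weights. Leaving out control 2 changed the sign of 16 of 44 members, and scaling to recovered reads that of 12.

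Scaling to recovered reads turned Map1lc3a to -0.054, Tfeb to -0.039, Lamp2 to -0.021, Ctsd to -0.047 and Ctsb to -0.054, and voom gave -0.054, -0.046, -0.021, -0.047 and -0.055 for the same genes. Quantile normalization turned Tfeb to -0.0022 and Lamp1 to 0.021. Array weights turned Map1lc3a to -0.064, Sqstm1 to 0.0031, Tfeb to -0.020, Lamp2 to -0.0087, Ctsb to -0.029, Opa1 to -0.035, Mfn2 to -0.0075, Dnm1l to -0.048, Tfam to -0.073 and Ctsl to 0.017. With 1 heart left out the log2 fold change ran from -0.059 to 0.096 for Map1lc3a, -0.056 to 0.10 for Tfeb, -0.079 to 0.13 for Lamp2, -0.084 to 0.015 for Lamp1, -0.014 to 0.066 for Ctsd, -0.015 to 0.036 for Ctsb, -0.066 to 0.46 for Opa1, -0.021 to 0.57 for Mfn2, -0.096 to 0.34 for Dnm1l, -0.061 to 0.18 for Tfam and -0.58 to 0.049 for Ctsl. Ratios ran from -0.063 to 0.13 for Ulk1 to Ulk2, -0.23 to 0.075 for Tfeb to Tfe3 and -0.014 to 0.15 for Mfn1 to Mfn2. The cause was not tested.

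No label says that hearts with the same replicate number belong together. The deviations of same-numbered hearts from their group means correlated at 0.021, -0.041 and 0.092. Those of differently numbered hearts correlated at -0.14 to 0.081. Control 2 strongly moves the mean of its group, so these values cannot decide whether hearts were paired. A mean of at least 5 FPKM kept 37 of 44 members.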
